A study of Mus musculus with 6 samples.

Results

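The lectin chaperones of the endoplasmic reticulum (ER) were examined in testis RNA as 7 genes, Canx, Calr, Calr3, Calr4, Clgn, Uggt1 and Uggt2, among 55536 genes counted in each library. The genes were taken by name, and all 7 passed the filter on low counts that left 21465 genes for testing. Poly(A)+ RNA of whole testes was sequenced from 3 KOStra8 and 3 HETStra8 mice aged 7 weeks, with 1 library per mouse. In KOStra8 mice 1 Sel1L allele was floxed, the other was deleted, and Stra8-Cre was present, in which a promoter active in male germ cells drives the recombinase. HETStra8 mice were littermates recorded with the same floxed and deleted alleles, without mention of Cre, whereas the study also uses this name for mice in which Stra8-Cre acts on 1 floxed allele beside a wild-type one. The genotype of each HETStra8 mouse was not given. By that record the deleted allele was carried by both groups. Per the study, Sertoli cells and spermatogonia still have SEL1L in the KOStra8 mice, and it reports no such staining for other somatic cells of the testis. SEL1L is the adaptor of the HRD1 ubiquitin ligase in ER-associated degradation (ERAD), the pathway that removes misfolded proteins from the ER. The study found HRD1 protein lower in spermatids but not in spermatocytes of KOStra8 mice, and no rise of the ERAD substrates it measured in testes. It proposes that SEL1L is dispensable for ERAD in these cells. The comparison asks whether transcripts of the chaperones that read glycans differ once SEL1L is lost from spermatocytes and spermatids, not whether they differ without ERAD.

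Most proteins that enter the ER receive a glycan, and calnexin (Canx, in the membrane) and calreticulin (Calr, in the lumen) hold those whose glycan has been trimmed to a single glucose. UGGT1 inspects released proteins and adds the glucose back to those not yet folded, so that they return to the chaperones, and UGGT2 is its paralog. Male germ cells also make calmegin (Clgn), a paralog of calnexin, and calsperin (Calr3), a paralog of calreticulin. Both are known for the folding of ADAM proteins, which sperm need to enter the oviduct and to bind the egg. Calr4 is a further paralog of calreticulin, little studied.

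The libraries held between 28875108 and 36526695 counts, and the targeted gene was lower in every KOStra8 mouse. Sel1l had 1549, 1603 and 1413 counts in the HETStra8 libraries 1 to 3 and 846, 636 and 741 in the KOStra8 ones. Its level in CPM, which are counts scaled to a common library size by TMM, was in KOStra8 0.477 of that in HETStra8 (log2 fold change −1.07, adjusted p = 0.00061, quasi-likelihood test of edgeR). HETStra8 mice 1 and 3 stood farthest apart among mice of the same genotype, with a chi-square of their counts per degree of freedom of 27.5 against 8.65 to 14.2 for the other pairs. Marker genes also differed between and within the groups. The 8 spermatocyte markers summed to 1142, 1162 and 1489 CPM in HETStra8 mice 1 to 3 and to between 1658 and 1691 CPM in KOStra8 mice. Sycp1 and Sycp2 differed most, with means of 125 and 218 CPM in HETStra8 and of 246 and 424 CPM in KOStra8. For 3 of the 8, Piwil1, Spag6 and Hist1h1t, the log2 fold changes were −0.02, −0.04 and −0.02, so the sum is not a shift of all markers. The 7 Sertoli cell markers summed to 1030 to 1231 CPM and 854 to 977 CPM. Clu, with means of 775 CPM in HETStra8 and 639 CPM in KOStra8, made up most of these sums. All 7 had a log2 fold change below 0, but those of Sox9 and Wt1 were only −0.01 and −0.05. Round spermatid markers, 6 genes, summed to 1242 to 1319 CPM and 1174 to 1279 CPM, with overlap. Elongating spermatid markers, 6 genes, gave 12330 to 12390 CPM and 11026 to 12636 CPM, with overlap. The sums of Leydig cell, macrophage and spermatogonial markers also overlapped, although all 6 Leydig cell and all 5 macrophage markers had a log2 fold change below 0, with medians of −0.29 and −0.35 beside −0.28 for the Sertoli cell markers. Epididymal markers were near 0 apart from HETStra8 mouse 1, where Crisp1 stood at 7.00 CPM, and Lcn8 was at 0 in every library. In RNA of whole testes, fewer cells of a type and less RNA per cell cannot be told apart.

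Per length of transcript, the germ cell paralog calmegin and the ubiquitous calreticulin were the most abundant of the 7 genes. Levels are given as RPKM, which here is CPM divided by the kilobases covered by a gene's exons. Clgn lay between 195 and 241 RPKM over the 6 mice, with a mean of 225, rank 160 among 15948 protein-coding genes tested. Calr lay between 194 and 230 RPKM, with a mean of 210 and rank 174. These ranges overlapped, and with the longest transcript as the length Calr came first, at 277 RPKM against 232 for Clgn. Calr3 followed at 57.2 RPKM (52.6 to 63.2, rank 1079) and Canx at 47.3 RPKM (44.0 to 51.2, rank 1321), without overlap between them or with Calr above. The other genes were over 10-fold lower than Canx. Uggt2 had a mean of 3.52 RPKM, Uggt1 of 3.10 RPKM and Calr4 of 2.80 RPKM, and neighbours in this order overlapped. Calr4 amounted to between 0.916% and 2.03% of Calr in the same library. Of the summed RPKM of the 7 genes, Clgn made up 40.9%, Calr 38.3%, Calr3 10.4% and Canx 8.62%.

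**Figure D1:**
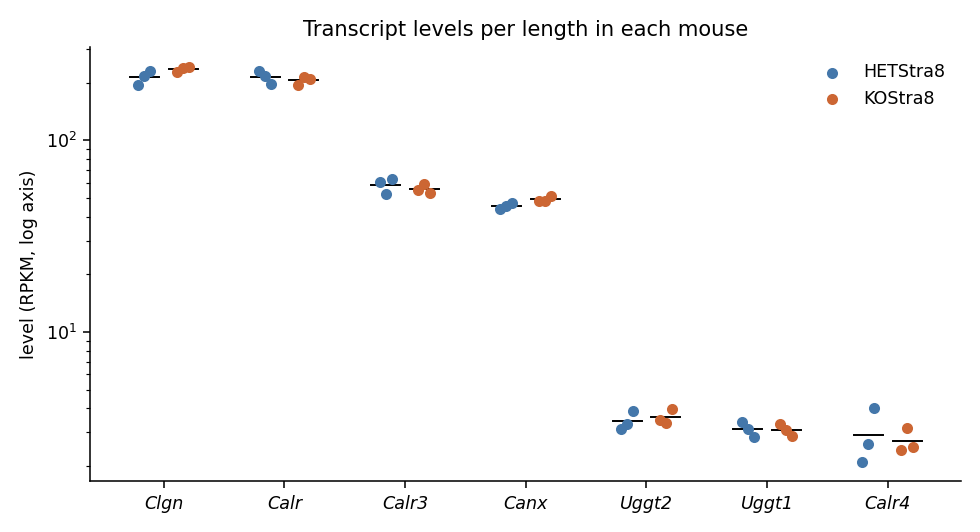
Transcript level (RPKM, log axis) of each of the 7 genes in each mouse, with HETStra8 in blue, KOStra8 in orange and a line at the mean of 3 mice. Clgn and Calr lie together between 194 and 241 RPKM, Calr3 and Canx between 44.0 and 63.2, and Uggt2, Uggt1 and Calr4 between 2.11 and 4.00, with overlapping genotypes except for Canx.

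Calmegin exceeded calnexin in every mouse, and calsperin was below calreticulin in every mouse. The ratio of Clgn to Canx in RPKM was 4.43, 4.81 and 4.87 for HETStra8 mice 1 to 3 against 4.72, 4.94 and 4.71 for the KOStra8 mice. The mean ratio was 4.74 (geometric mean, two-sided exact sign-flip permutation test over 6 mice, p = 0.031, the smallest possible, and 0.0469 adjusted over 3 pairs). The germ cell paralog was the more abundant member of the calnexin pair in whole testes of both genotypes. The ratio of Calr3 to Calr was 0.263, 0.243 and 0.321 in HETStra8 mice and 0.284, 0.274 and 0.254 in KOStra8 mice. Its mean was 0.272, and the exact permutation test gave the same p of 0.031 (0.0469 adjusted). In the calreticulin pair the ubiquitous paralog was the more abundant. Uggt2 and Uggt1 showed no order beyond the spread between mice, with ratios from 0.920 in HETStra8 mouse 1 to 1.38 in KOStra8 mouse 3 and a mean of 1.13 (exact permutation p = 0.125, also 0.125 adjusted). This ratio depended on the length used, since with the longest transcript Uggt2 was above Uggt1 by 0.66 on the log2 scale in all 6 mice (exact permutation p = 0.031).

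The balance between paralogs did not move with the genotype beyond the spread between mice. The log2 ratio of Clgn to Canx was 2.23 ± 0.0743 (SD, n = 3) in HETStra8 and 2.26 ± 0.0385 (SD, n = 3) in KOStra8, a difference of 0.03 (SE 0.0483, two-sided exact permutation p = 0.8). For Calr3 to Calr it was −1.87 ± 0.208 (SD, n = 3) and −1.89 ± 0.0837 (SD, n = 3), a difference of −0.02 (SE 0.129, exact permutation p = 0.9). For Uggt2 to Uggt1 the difference was 0.08 (SE 0.211, exact permutation p = 0.7), and it turned to −0.13 after a GC and length correction, in which each library is adjusted by a curve over the GC content and length of transcripts. All 3 pairs had an adjusted p of 0.9 in this exact permutation test, which cannot go below p = 0.1 for 3 mice against 3. HETStra8 mouse 3 had the highest ratio of Calr3 to Calr, and without it the difference of that pair was 0.10. Clgn and Calr3 together made up 48.0%, 50.5% and 54.1% of the summed RPKM of Clgn, Calr3, Canx, Calr and Calr4, the 5 chaperones without the glucosyltransferases, for HETStra8 mice 1 to 3 against 53.6%, 52.6% and 52.9% for the KOStra8 mice. The KOStra8 values lay inside the HETStra8 range (exact permutation p = 0.4).

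**Figure D2:**
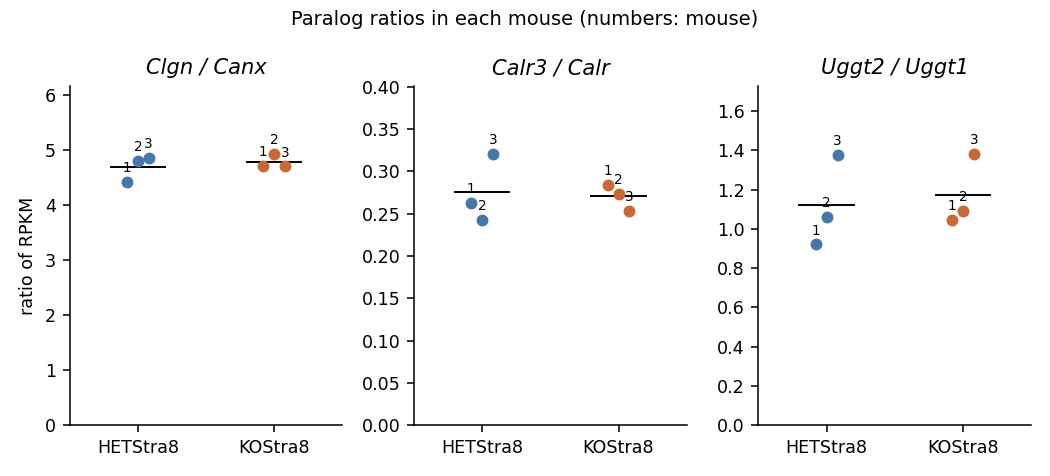
Ratio of the RPKM of each paralog pair in each mouse, with the mouse number above each point and a line at the mean of 3 mice. Clgn exceeds Canx over 4-fold in every mouse, Calr3 stays below Calr, Uggt2 and Uggt1 are near equal, and the genotypes overlap in each panel.

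No lectin chaperone differed between the genotypes past the cutoffs of the study, a fold of 2 at an adjusted p of 0.01, which 0.00932% of all tested genes passed. At an unadjusted p below 0.05 there was also no member, higher or lower, where 7.13% of all genes were higher in KOStra8 and 5.12% were lower. DESeq2 gave no member at an unadjusted p below 0.05 either, while limma-voom did for Clgn (unadjusted p = 0.0432, adjusted p = 0.376 from limma), as did edgeR with library totals in place of TMM (unadjusted p = 0.0486, adjusted p = 0.412). Adjusted p-values from edgeR's test lay between 0.430 and 0.967. The 95% interval of the fold change lay within a fold of 2 in either direction for all 7 genes. Of the 7 log2 fold changes 3 were above 0 and 4 below, with a median of −0.02, and the median over all genes tested was −0.0094. The study reported many more genes past its cutoffs than this fit found, and it names no count test. It also reported calmegin transcripts, and the proteins calmegin and calnexin, as unchanged in KOStra8 testes.

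**Figure D3:**
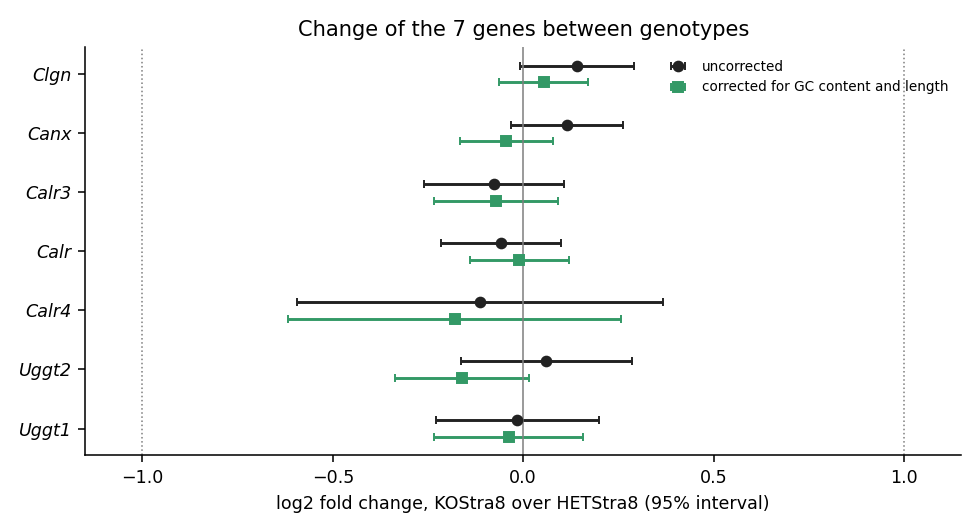
Log2 fold change of KOStra8 over HETStra8 for each gene with its 95% interval from edgeR, uncorrected (black circles) and after the GC and length correction (green squares), with dotted lines at a fold of 2. Every interval includes 0 and stays inside the dotted lines, and Canx and Uggt2 change sign with the correction.

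Among the germ cell paralogs, calmegin had the larger difference. Clgn (ENSMUSG00000002190, chromosome 8 of GRCm38 from 83389867 to 83428552, plus strand) was at 784, 874 and 921 CPM in HETStra8 mice 1 to 3, and at 918, 955 and 970 CPM in KOStra8 mice 1 to 3. The KOStra8 mice were in the upper part of the range, and the groups met, since KOStra8 mouse 1 was just below HETStra8 mouse 3. The means were 860 ± 69.4 and 948 ± 27.0 CPM in the HETStra8 and KOStra8 mice (mean ± SD, n = 3 each), a fold of 1.10 and a 95% interval from 0.993 to 1.22 (log2 fold change 0.14, SE 0.0701, edgeR adjusted p = 0.430). HETStra8 mouse 1, lowest for Clgn, also had the lowest sum of spermatocyte markers and the highest sum of Sertoli cell markers, and the part of these in the result was not tested. Of the marker genes, 2 of 8 for spermatocytes were higher in KOStra8 and 4 of 7 for Sertoli cells were lower at an unadjusted p below 0.05, against 7.13% and 5.12% of all tested genes. Without HETStra8 mouse 1 the log2 fold change was 0.08, and without HETStra8 mouse 3 it was 0.20 (edgeR adjusted p = 0.0952).

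Calr3 (ENSMUSG00000019732, chromosome 8 from 72424176 to 72443870, minus strand) had overlapping groups. It was at 119, 103 and 124 CPM in HETStra8 mice 1 to 3, and at 108, 116 and 104 CPM in KOStra8 mice 1 to 3. All KOStra8 values lay between the lowest and the highest HETStra8 value. The means were 115 ± 10.8 and 109 ± 5.94 CPM in the HETStra8 and KOStra8 mice (mean ± SD, n = 3 each), with a log2 fold change of −0.08 ± 0.0857 (SE, edgeR adjusted p = 0.750).

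Calnexin was the one member whose groups did not overlap, and calreticulin showed no difference beyond the spread. Canx (ENSMUSG00000020368, chromosome 11 from 50293961 to 50325673, minus strand) was at 207, 212 and 221 CPM in HETStra8 mice 1 to 3, and at 227, 226 and 240 CPM in KOStra8 mice 1 to 3. The lowest KOStra8 mouse was above the highest HETStra8 mouse, as for 9.33% of all tested genes, and a two-sided exact permutation test gave p = 0.1. The means were 213 ± 7.07 and 231 ± 8.21 CPM in the HETStra8 and KOStra8 mice (mean ± SD, n = 3 each), a fold of 1.08 and an interval from 0.978 to 1.20 (log2 fold change 0.12, SE 0.0688, edgeR adjusted p = 0.516). The separation was not found after the GC and length correction, which gave −0.04 on the log2 scale. Calr (ENSMUSG00000003814, chromosome 8 from 84841850 to 84846934, minus strand) was at 663, 624 and 567 CPM in HETStra8 mice 1 to 3, and at 559, 620 and 600 CPM in KOStra8 mice 1 to 3. The lowest KOStra8 and the highest HETStra8 mouse set the limits of the joint range, and the other mice were mixed. The means were 618 ± 48.0 and 593 ± 31.2 CPM in the HETStra8 and KOStra8 mice (mean ± SD, n = 3 each), with a log2 fold change of −0.06 ± 0.0734 (SE, edgeR adjusted p = 0.782).

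Calr4 (ENSMUSG00000028558, chromosome 4 from 109234485 to 109254571, plus strand) varied most. Its counts were 167, 221 and 336 in the HETStra8 libraries 1 to 3 and 213, 230 and 230 in the KOStra8 ones. HETStra8 mouse 3 stood above the others, and the coefficient of variation was 33.8% in HETStra8 against 14.9% in KOStra8, compared with 3.32% and 3.56% for Canx. In CPM the means were 7.32 ± 2.47 in HETStra8 and 6.78 ± 1.01 in KOStra8 (mean ± SD, n = 3 each). The log2 fold change was −0.11 ± 0.223 (SE, edgeR adjusted p = 0.870) with all mice and 0.20 without HETStra8 mouse 3.

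The glucosyltransferases showed no difference between the genotypes beyond the spread between mice. Uggt1 (ENSMUSG00000037470, chromosome 1 from 36140027 to 36244720, minus strand) was at 43.7, 40.1 and 36.3 CPM in HETStra8 mice 1 to 3, and at 42.5, 39.5 and 36.8 CPM in KOStra8 mice 1 to 3. The genotypes were mixed along the range, and the log2 fold change was −0.02 ± 0.0999 (SE, edgeR adjusted p = 0.967). Uggt2 (ENSMUSG00000042104, chromosome 14 from 118985039 to 119099430, minus strand) was at 40.1, 42.5 and 49.8 CPM in HETStra8 mice 1 to 3, and at 44.3, 42.9 and 50.7 CPM in KOStra8 mice 1 to 3. Here too the groups overlapped, with a log2 fold change of 0.06 ± 0.105 (SE, edgeR adjusted p = 0.851). After the GC and length correction it was −0.16 (unadjusted p = 0.0696, adjusted p = 0.692 from edgeR), and all KOStra8 mice were then below all HETStra8 mice, as for 6.88% of all tested genes. Exons of Uggt2 share 220 bases with Gm16835 on the opposite strand, and whether reads were counted by strand is not given in the sources used here. Of the 50-base sequences of a gene's transcripts, 2.17% were shared with another gene for Uggt2, 0.574% for Uggt1, 0.343% for Calr, all with the pseudogene Calr-ps, and none for Canx, Calr3, Calr4 and Clgn.

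Base composition moved with the fold changes over all genes, and the signs of Canx and Uggt2 turned with it. Across 21457 genes the Spearman rho between GC content and log2 fold change was −0.46, and −0.01 after the correction, as a description of these libraries, since genes are not independent replicates. Uggt2, with 41.5% GC, and Canx, with 42.2%, had the lowest GC content of the 7 genes and lay in the range where most genes were higher in KOStra8. Clgn had 44.3%, Calr4 44.6%, Calr3 48.4% and Uggt1 49.1%, and Calr was the highest. After the correction 1 of 7 log2 fold changes was above 0, that of Clgn at 0.05 (edgeR adjusted p = 0.877). No member had an unadjusted p below 0.05 after it, where 7.62% of all genes did. The median of the spermatocyte markers went from 0.44 to 0.07 with the same correction, and that of the Sertoli cell markers from −0.28 to −0.14. The part of these cells in the trend was not tested.

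**Figure D4:**
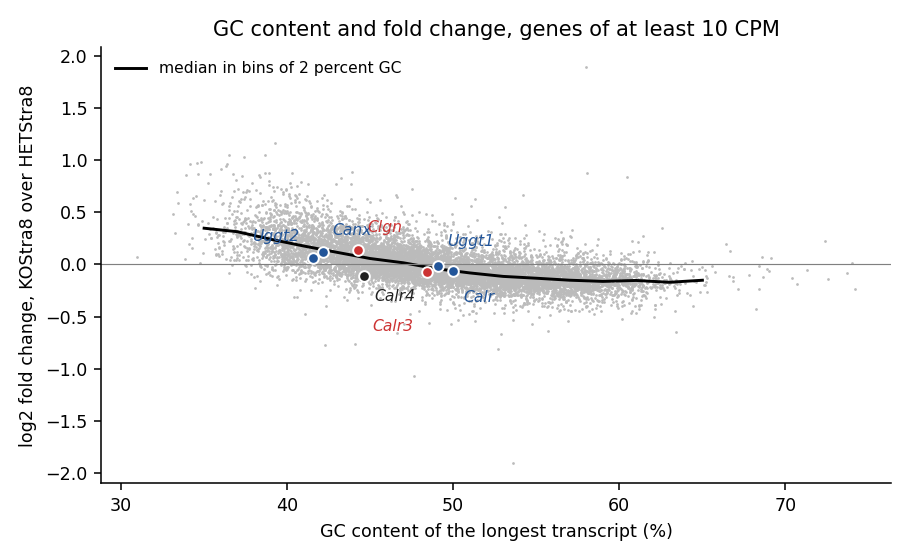
GC content of the longest transcript (percent) against log2 fold change of KOStra8 over HETStra8 for genes of at least 10 CPM (grey), with the median per bin of GC content as a line. The germ cell paralogs Clgn and Calr3 are red, Calr4, below 10 CPM, is black and the other members are blue. Members lie close to the line, with Uggt2 and Calr4 under it and Clgn above it.

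The promoters were searched for the ER stress response element (ERSE), the sequence through which ATF6 and NF-Y are known to raise chaperone genes when unfolded proteins gather. The search was chosen after the values were seen. The letters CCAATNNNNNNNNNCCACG were sought on both strands from 250 bases before to 50 after each start in RefSeq (GRCm38.p6). The motif contains a CCAAT box, which by itself was in 37.4% of windows. It was in 0.119% of 32851 windows and in the windows of 37 of 27025 genes. Of the 7 members 6 were matched, with 10 windows, and Canx, Calr and Calr4 held the motif. No match was in the windows of Calr3, Uggt1 and Uggt2, which says only that these letters are not in them. The ubiquitous Canx and Calr and the paralog Calr4, with the motif, are shown beside the germ cell paralog Calr3, without it. The motif does not divide ubiquitous from germ cell genes here, since Uggt1 also lacks it and Clgn could not be searched. Parts of the stretch upstream of the start are given 5′ to 3′ on the strand of the gene, with the motif, on either strand, in capitals. Bases inside the gene as annotated by GENCODE are left out for Calr and Calr3, and of Calr4 only the motif with 40 bases on either side is shown. The CCAAT box of Calr3 at −79 to −75 from the start is in the part left out.
Canx, chr11:50325674-50325923, minus strand: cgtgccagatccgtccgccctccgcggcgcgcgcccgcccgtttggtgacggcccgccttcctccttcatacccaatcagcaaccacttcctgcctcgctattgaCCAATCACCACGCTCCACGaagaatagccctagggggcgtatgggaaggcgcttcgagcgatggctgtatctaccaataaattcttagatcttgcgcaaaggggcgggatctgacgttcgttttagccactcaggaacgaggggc
Calr, chr8:84846935-84847181, minus strand: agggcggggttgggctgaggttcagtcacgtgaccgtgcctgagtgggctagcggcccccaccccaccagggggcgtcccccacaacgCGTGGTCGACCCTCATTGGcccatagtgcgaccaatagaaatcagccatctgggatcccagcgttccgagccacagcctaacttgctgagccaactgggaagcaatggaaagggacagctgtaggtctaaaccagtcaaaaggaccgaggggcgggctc
Calr3, chr8:72443871-72444028, minus strand: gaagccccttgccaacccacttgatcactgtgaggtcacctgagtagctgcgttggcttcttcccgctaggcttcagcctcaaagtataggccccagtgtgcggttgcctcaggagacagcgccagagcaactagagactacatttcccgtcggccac
Calr4, chr4:109218198-109218296, plus strand: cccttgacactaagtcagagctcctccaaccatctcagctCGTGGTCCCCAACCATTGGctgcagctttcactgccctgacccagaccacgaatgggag
The motif began 145 bases before the start in Canx on the strand of the gene, and it ended 144 bases before it in Calr and 157 bases before it in Calr4 on the reverse strand. Calr4 has other starts, with no such motif in their windows. Its motif belongs to a RefSeq start that lies upstream of the gene as annotated by GENCODE. Clgn has no entry in the table used.

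Of the 37 genes 27 were tested, 14 had a log2 fold change above 0, and the median was 0.02 against −0.03 for genes without it. After the GC and length correction these medians were −0.01 and −0.02. Uncorrected, 5 were higher at an unadjusted p below 0.05. They were Hspa5 and Hsp90b1, which encode the main ER chaperones BiP and GRP94, Dnajc3, and Gm34297 and Xlr3b at means of only 3.87 and 0.899 CPM. The 1 lower gene was Derl3, where 5.12% of all tested genes were lower. The higher genes were 18.5% of those with the motif, against 7.18% of genes without it. With the GC and length correction, 2 of the 27 were below that p, Hsp90b1 and Xlr3b, both higher, where 7.62% of all genes were. Hspa5 was at 544 ± 8.03 and 602 ± 13.5 CPM in the HETStra8 and KOStra8 mice (mean ± SD, n = 3 each), with a log2 fold change of 0.15 (edgeR adjusted p = 0.367). After the correction it was 0.09 and no longer below that p, and Canx was at −0.04. Uncorrected, Canx had 0.12, and Calr and Calr4, with the same motif, had −0.06 and −0.11. The study reported BiP transcripts, and the proteins BiP and GRP94, as unchanged in KOStra8 testes. It saw a mild rise of Xbp1 splicing and no overt ER stress response.

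No partner of the lectin chaperones passed the cutoffs. Of 6 folding partners none had an unadjusted p below 0.05 in edgeR's test or groups apart, and the median log2 fold change was 0.02. Pdia3, the disulfide isomerase that works with calnexin and calreticulin, was at 353 ± 13.7 and 372 ± 5.52 CPM in the HETStra8 and KOStra8 mice (mean ± SD, n = 3 each), with a log2 fold change of 0.07 (edgeR adjusted p = 0.683). Pdilt, the testis isomerase that works with calmegin and calsperin, was at 174 ± 28.4 and 185 ± 10.6 CPM in the HETStra8 and KOStra8 mice (mean ± SD, n = 3 each), with a log2 fold change of 0.09 (edgeR adjusted p = 0.766). Uncorrected, the groups overlapped for the ubiquitous and for the germ cell partner. After the GC and length correction 1 of the 6 partners, Erp29 at −0.20, had an unadjusted p below 0.05 in edgeR's test, as did 7.62% of all tested genes. Pdia3 was then at 0.06 (edgeR adjusted p = 0.858) with all KOStra8 mice above all HETStra8 mice. The share of all genes with this separation was not counted after the correction. Before it, 9.33% of all tested genes had KOStra8 higher without overlap. Of the 7 enzymes that trim the glycan before and after the chaperones, 5 had a log2 fold change below 0 and none an unadjusted p below 0.05. Mogs, the glucosidase that removes the first glucose, was the one whose groups did not overlap, with 17.0, 17.7 and 19.5 CPM in HETStra8 mice 1 to 3 and 16.4, 16.2 and 14.4 CPM in KOStra8 mice 1 to 3. It was lower in KOStra8 (log2 fold change −0.21, adjusted p = 0.490 from edgeR), as were 8.43% of all tested genes without overlap. After the GC and length correction Mogs was at −0.06 with overlapping groups, and the median of the 7 enzymes went from −0.10 to 0.01. The lectins Os9, Erlec1 and Fbxo6, which pick glycoproteins for degradation, had log2 fold changes of −0.13, 0.14 and −0.20 with overlapping groups.

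The sperm ADAM clients of calmegin and calsperin showed both directions. Adam3, which sperm need for migration into the oviduct, was at 1061, 1141 and 1197 CPM in HETStra8 mice 1 to 3, and at 1217, 1221 and 1299 CPM in KOStra8 mice 1 to 3. The groups did not overlap, with KOStra8 higher as for 9.33% of all tested genes, and the log2 fold change was 0.14 (SE 0.0656, edgeR adjusted p = 0.417). Adam1a, which pairs with ADAM2 in the ER, was at 122, 139 and 128 CPM in HETStra8 mice 1 to 3, and at 119, 118 and 113 CPM in KOStra8 mice 1 to 3. Its groups did not overlap either, with KOStra8 lower as for 8.43% of all tested genes, and the log2 fold change was −0.15 (SE 0.0770, edgeR adjusted p = 0.435). Adam2 and Adam1b gave 0.04 and −0.00 with overlap. Of 7 other factors that ADAM3 needs, 2 had an unadjusted p below 0.05, both lower in KOStra8, as were 5.12% of all tested genes. Ace, an enzyme of the sperm surface, was at 752 ± 22.9 and 672 ± 10.2 CPM (SD, n = 3; log2 fold change −0.16, edgeR adjusted p = 0.326). Ly6k, a GPI-anchored sperm protein, was at 50.1 ± 3.42 and 43.3 ± 1.66 CPM (SD, n = 3; log2 fold change −0.21, edgeR adjusted p = 0.368). After the GC and length correction these were −0.03 and −0.14, and neither was below that p. Adam1a, at −0.15, was below it (edgeR adjusted p = 0.606), as were 7.62% of all tested genes in either direction. Adam3 was then at 0.09 (edgeR adjusted p = 0.727) and not below it. Both kept their groups apart. With KOStra8 lower, 6.88% of all tested genes did so, and the share with KOStra8 higher was not counted.

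**Figure D5:**
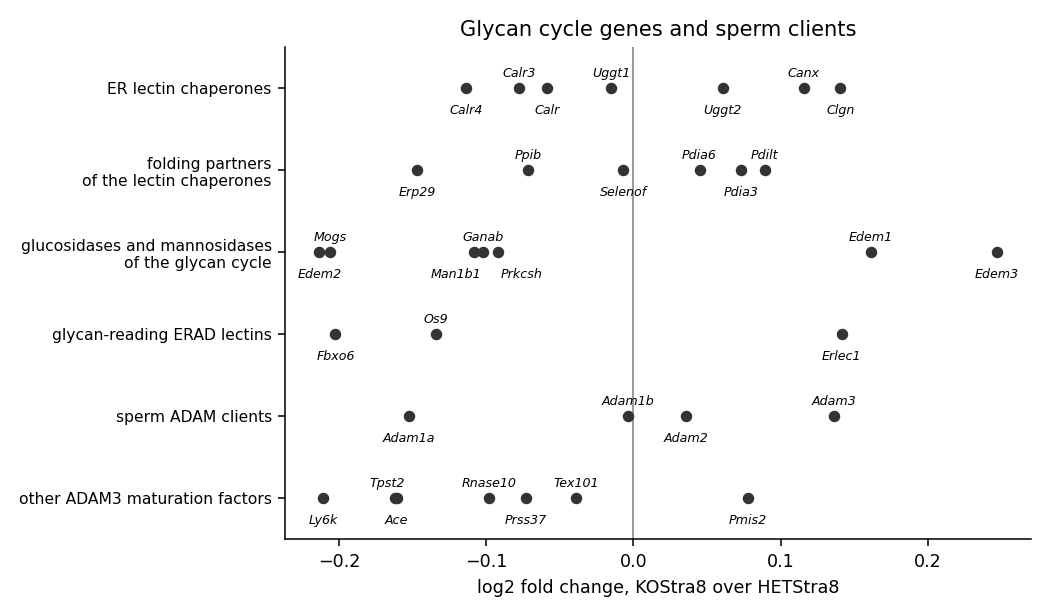
Log2 fold change of KOStra8 over HETStra8 for each gene of 6 lists, from the lectin chaperones at the top to factors of ADAM3 maturation at the bottom, 1 point per gene from 3 mice in each group. All points lie between −0.21 and 0.25, and each list has genes on both sides of 0.

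The genes whose profile over the mice was most like that of each germ cell paralog are given as a description. Among 10013 genes of at least 10 CPM, Cdkl3, Lrrc6 and Lyar were most like Clgn, with Pearson r over 6 mice of 0.996, 0.996 and 0.994, and 279 genes had an r over 0.95 with Clgn. The log2 fold changes of these 3 genes were 0.17, 0.31 and 0.23, all above that of Clgn. Most like Calr3 were Gm26891, an antisense gene whose reads could belong to its partner if strand was not counted, Vps37b and Pex5l, with r of 0.991, 0.991 and 0.984, and 17 genes had an r over 0.95. Their log2 fold changes were −0.11, −0.15 and −0.10. These values describe 6 libraries of 2 genotypes that also share depth and base composition. The named genes have the highest of 10013 values of r over only 6 mice. How many unrelated genes would reach such an r was not tested, so the counts of 279 and 17 show no relation by themselves.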

How the data were processed

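Testis RNA of 3 KOStra8 and 3 HETStra8 mice was made into directional libraries of poly(A)+ RNA. The authors deposited raw counts per Ensembl gene, 1 table per mouse, without normalization. The submitters' processing notes name FastQC, Trimmomatic, STAR 2.7.1a, Picard 2.20.4, StringTie 2.0.4, featureCounts 1.6.0, HTSeq, mm10 and GRCm38, without roles. The 55536 identifiers were named from GENCODE mouse release 21, and all 7 members were found.

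Counts were fitted in R 4.3.3 with edgeR 4.0.16 (filterByExpr, TMM, robust quasi-likelihood F test, two-sided, Benjamini-Hochberg adjustment over 21465 genes), with genotype as the only term. Log2 CPM used a prior count of 2. Paralog ratios were tested by exact permutation. The GC and length correction took offsets from a loess curve per library (span 0.3) over the GC content and length of transcripts, with a minimum log2 CPM of 2. The other alternatives were other size factors, other filters on low counts, the replicate number as a block, DESeq2 1.42.0, limma-voom (limma 3.58.1), other lengths, 0.5 counts added before the log2 ratio and leaving out each mouse. Scripts were tested on simulated data. Totals of 28875108 to 36526695 counts leave counting error small for all members but Calr4. P-values set a difference or ratio against the spread between these mice, which edgeR moderates with that of all tested genes. Replicates differed beyond sampling noise, so that none was counted together.

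The genes named are the members, Sel1l, Pdia3 and Pdilt, up to 4 genes of each list of the pathway, the clients and the ADAM3 factors whose groups do not overlap, and the 3 genes most like Clgn and most like Calr3. Other genes were named after their values were seen. Members and lists were chosen with earlier results of these data known. Same-numbered mice did not deviate together in every pair (r −0.07, −0.12 and 0.18), and the numbers were not taken as pairs.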

Additional observations from a re-analysis of the deposited data

How the results depend on the processing

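The member results kept their direction and stayed outside the cutoffs in 96 of 105 alternatives, and no alternative brought a member past an adjusted p of 0.01. The GC and length correction changed the sign of Canx to −0.044 and of Uggt2 to −0.16, and gave −0.044 and −0.16 also with the replicate block. That correction also turned the difference of Uggt2 to Uggt1 to −0.13. With the replicate block alone Clgn was at 0.14 (adjusted p = 0.451) and Canx at 0.12 (adjusted p = 0.586), and the block changed no call of a member. With each mouse left out in turn, log2 fold changes ran from 0.09 to 0.15 for Canx, −0.11 to −0.0064 for Calr, −0.15 to −0.01 for Calr3, −0.30 to 0.20 for Calr4, 0.08 to 0.20 for Clgn, −0.072 to 0.051 for Uggt1 and −0.016 to 0.17 for Uggt2. The differences between genotypes ran from −0.015 to 0.054 for Clgn to Canx, −0.10 to 0.10 for Calr3 to Calr and −0.055 to 0.24 for Uggt2 to Uggt1. The log2 ratios of levels ran from 2.23 to 2.27 for Clgn to Canx and from −1.93 to −1.85 for Calr3 to Calr, with exact permutation p = 0.0625, the smallest that 5 mice allow. The level of Uggt2 against Uggt1 with the longest transcript was 0.66. Of all genes, 2 passed the cutoffs, 39 without a filter, 5 with the replicate block, 6 in DESeq2 and 1 to 44 with a mouse left out, the highest without HETStra8 mouse 3. Without that mouse Canx and Clgn had an unadjusted p below 0.05 (edgeR adjusted p = 0.235 and 0.0952). Clgn was also below that p in limma-voom and with library totals. The cause of these changes was not tested. For Calr4, with 167 to 336 counts, the interval of the fold was the widest, from 0.663 to 1.29.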
